A study of Mus musculus with 6 samples.

Results

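Endothelial and mural cell genes were followed in the hippocampus of PHF2 t/g and wild-type (WT) mice. The group held 34 genes, chosen by symbol as genes known for expression in brain endothelial cells, pericytes or vascular smooth muscle, and all 34 were found among the 23282 rows of the count table. Of these, 30 passed the low-count filter and were among the 12831 genes tested. The 2 groups were PHF2 t/g C57BL/6 mice aged 16 weeks (3 libraries) and WT C57BL/6 mice of the same age (3 libraries), with no other treatment in the labels. The labels do not give the PHF2 construct, the promoter that drives it or the number of founder lines, and they call the samples triplicates without saying that each came from its own animal, so p-values measure the spread between these samples, which may be technical.

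Brain capillaries are lined by endothelial cells joined by tight junctions, which together with specific transporters form the blood-brain barrier. Pericytes cover the capillary wall, where they receive platelet-derived growth factor from the endothelium, and contractile smooth muscle cells surround arterioles and arteries. PHF2 is a histone demethylase that removes methyl groups from lysine 9 of histone H3.

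RNA was read with QuantSeq, a method that sequences the 3′ end of each transcript, so a count stands for about 1 transcript whatever its length, and levels can be set beside each other between genes. Library totals were 6053363 to 8612720 counts in PHF2 t/g against 5512171 to 8844718 in WT, and levels are given below as counts per 1000000 counts of a library (CPM) after TMM scaling of the libraries. Phf2 itself had 38.7 ± 3.96 CPM in PHF2 t/g against 37.7 ± 1.92 CPM in WT (SD, n = 3 each; edgeR adjusted p = 0.929); tags at the endogenous 3′ end would not read a transgene that lacks it, so this does not check the labels. The hippocampal markers were detected in every library. Prox1 of the dentate gyrus (1.77 to 8.76 CPM) and Fibcd1 of the CA1 field (7.88 to 40.9 CPM) varied within groups, while Wfs1, also of CA1, was 1.40-fold higher in PHF2 t/g (48.1 to 54.0 CPM, against 34.7 to 37.4 CPM in WT; adjusted p = 0.0191). Some hypothalamic and striatal markers were higher in PHF2 t/g. The summed hypothalamus list stood at 53.1 to 57.1 CPM in PHF2 t/g against 9.84 to 12.5 CPM in WT, with 3 of 5 tested markers (Avp, Oxt and Trh) higher, Hdc lower in every library without passing (2.97 ± 1.22 CPM in PHF2 t/g, 5.99 ± 1.11 CPM in WT), Pomc overlapping and Otp at 0 throughout. The summed striatum list stood at 779 to 898 CPM in PHF2 t/g against 595 to 692 CPM in WT, with 3 of 7 tested markers (Penk, Tac1 and Rgs9) higher and Adora2a at a log2 fold change of -0.33 without passing. PHF2 t/g replicate 1 held 292 CPM of the choroid plexus transcript Ttr, against 1.29 to 4.46 CPM in the other libraries, and WT replicate 2 was set off from the rest in a multidimensional scaling of all genes (first coordinate 1.08, against -0.53 to 0.15). The part of these differences in the vascular values was not tested. The defining markers of endothelium (Cldn5, Pecam1, Tek and Cdh5), pericytes (Pdgfrb, Rgs5, Vtn and Abcc9) and smooth muscle (Acta2, Tagln, Myl9 and Myh11) had counts in every library.

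Among the endothelial and mural genes, 6 were higher in PHF2 t/g and none was lower at an adjusted p under 0.05 in edgeR's quasi-likelihood test, while 24 did not pass. The 6 were Vwf and Lrg1, which encode secreted proteins of endothelium, Ly6c1, which encodes an endothelial surface protein, Slc2a1, the glucose transporter of the blood-brain barrier, and the pericyte genes Notch3 and Abcc9. Over all 12831 genes tested, 0.779% were higher in PHF2 t/g (100 genes) and 1.49% were lower (191 genes); with libraries scaled by total count alone, that split was 207 higher and 70 lower. An unadjusted p under 0.05 was reached by 12 of the 30 genes (11 higher and Cldn5 lower), against 14.7% of all genes. All 3 PHF2 t/g libraries lay above all 3 WT libraries for 10 of the 30 genes, where 10.1% of all genes did so. They lay below for 1, Cldn5, where 10.4% of all genes did so. The median log2 fold change was 0.14, beside 0.02 for all genes tested, with 18 genes above 0 (60%, against 53.9% of all genes tested) and 12 below. With total count alone both medians moved up by about the same amount, to 0.24 and 0.12. Vwf, Lrg1 and Sox17 passed the low-count filter only through the PHF2 t/g libraries, so these counts and medians describe the 30 tested genes and support nothing about the 34. In bulk tissue, a change in the number of cells of a type and a change in RNA per cell cannot be told apart.

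**Figure D1:**
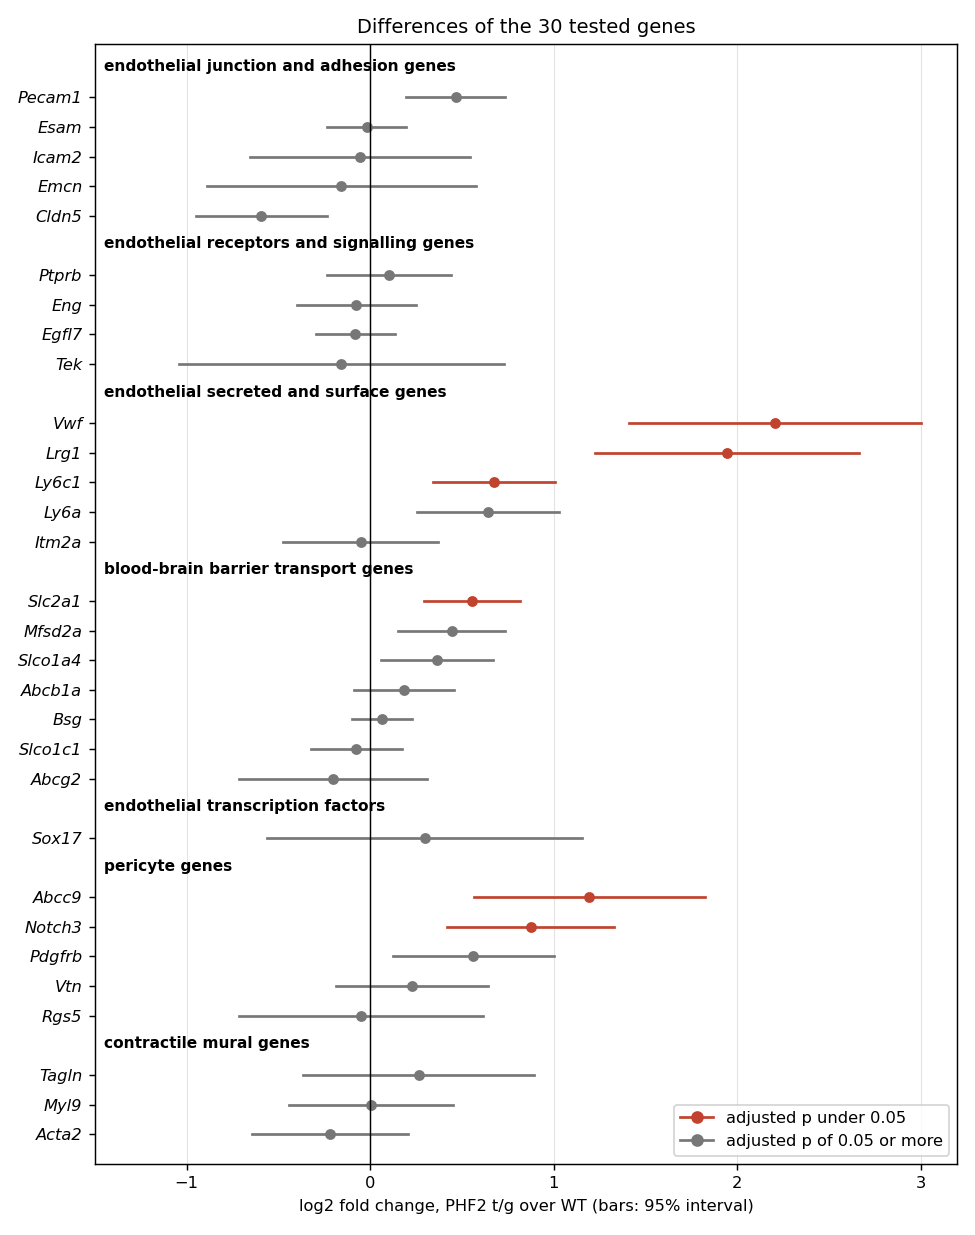
Fitted log2 fold change of PHF2 t/g over WT for the 30 tested genes (horizontal axis, log2), ordered by role, with 95% intervals from the quasi-likelihood fit; red points passed an adjusted p of 0.05. Vwf and Lrg1 lie farthest to the right at 2.21 and 1.94, and Cldn5 lies farthest to the left at -0.59.

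Vwf and Lrg1 were called in 14 of the 15 alternative settings that gave them an adjusted p. Both lost their call when PHF2 t/g replicate 1 was left out (adjusted p = 0.064 for Vwf and 0.0561 for Lrg1), a setting in which no gene of the group was called and 0.185% of all genes were higher. With PHF2 t/g replicate 1 and WT replicate 2 both left out, Vwf and Lrg1 were called and 0.367% of all genes were higher. With limma-voom the same 2 genes were called and 0.413% of all genes were higher. With DESeq2 9 of the group received an adjusted p, 1 of them (Slc2a1) was called, and 0.802% of the genes with an adjusted p were higher. For the other 4 genes the call was lost when a single PHF2 t/g library, whichever of the 3, was dropped, with limma-voom and in a fit that was not robust. Ly6c1 and Abcc9 also failed when WT replicate 1 was left out, Notch3 and Abcc9 when WT replicate 2 was, and Ly6c1 when WT replicate 3 was. Their fold changes stayed above 0 in each of these settings.

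**Figure D2:**
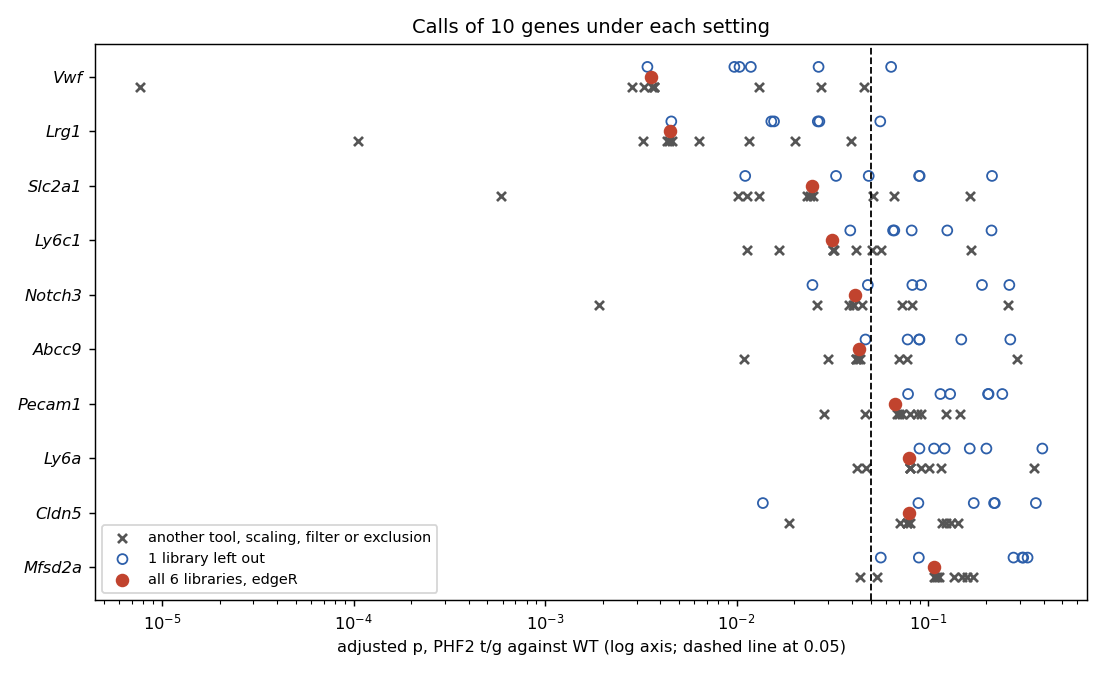
Adjusted p (log axis) of 10 genes under the main test, with each of the 6 libraries left out in turn and under the other settings; the dashed line marks 0.05. Vwf and Lrg1 cross the line in 1 setting each, and the other 4 called genes lie on both sides of it.

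The stretch before an annotated start site is shown for 5 of the 6 genes that were higher and for Cldn5, which alone had every PHF2 t/g library below every WT library, because genes of 1 vascular cell type are often bound there by shared factors. RefSeq entries (GRCm38.p6) were found for 23 of the 34 genes, and the 190 bases from 250 to 61 bases before the start are printed 5′ to 3′ on the gene's strand. For Abcc9 and Ly6c1 the entry uses a start inside the widest annotated span of the gene, so the Abcc9 window lies within that span and the Ly6c1 window overlaps it. Capitals mark GGAAG on either strand (read as CTTCC on the other), the core that ETS factors such as ERG recognise.
Lrg1, chr17:56122007-56122196, minus strand: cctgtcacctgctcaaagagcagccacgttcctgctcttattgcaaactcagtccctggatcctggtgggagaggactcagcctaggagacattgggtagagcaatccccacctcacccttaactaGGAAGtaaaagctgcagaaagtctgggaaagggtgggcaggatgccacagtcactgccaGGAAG
Ly6c1, chr15:75048898-75049087, minus strand: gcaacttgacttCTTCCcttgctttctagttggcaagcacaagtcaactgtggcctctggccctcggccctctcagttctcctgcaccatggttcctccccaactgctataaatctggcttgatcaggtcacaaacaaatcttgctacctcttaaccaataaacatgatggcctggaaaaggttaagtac
Slc2a1, chr4:119108495-119108684, plus strand: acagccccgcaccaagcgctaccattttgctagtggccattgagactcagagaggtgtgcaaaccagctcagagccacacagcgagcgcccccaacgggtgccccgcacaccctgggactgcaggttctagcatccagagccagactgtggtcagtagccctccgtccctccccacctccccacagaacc
Abcc9, chr6:142702335-142702524, minus strand: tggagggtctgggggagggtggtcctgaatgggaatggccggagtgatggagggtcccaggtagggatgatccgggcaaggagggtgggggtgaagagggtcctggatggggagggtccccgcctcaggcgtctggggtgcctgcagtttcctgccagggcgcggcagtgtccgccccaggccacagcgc
Notch3, chr17:32166951-32167140, minus strand: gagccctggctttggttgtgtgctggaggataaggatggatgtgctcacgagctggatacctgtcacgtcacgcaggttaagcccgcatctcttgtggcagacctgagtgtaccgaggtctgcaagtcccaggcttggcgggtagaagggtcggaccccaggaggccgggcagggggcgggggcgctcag
Cldn5, chr16:18776597-18776786, plus strand: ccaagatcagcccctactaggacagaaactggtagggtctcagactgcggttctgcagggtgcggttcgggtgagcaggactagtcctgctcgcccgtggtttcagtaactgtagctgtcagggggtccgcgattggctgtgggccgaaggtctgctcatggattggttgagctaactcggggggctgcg

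No motif searched was present in all 6 windows. GGAAG occurred in the windows of Lrg1 (2 matches) and Ly6c1 (1 match) and not in the other 4. Over all windows it was present for 13 of the 23 matched genes (56.5%) and for 56.1% of the 27025 genes with an entry. The SOX core ACAAT, on either strand, was present for 4 of the 23 (17.4%), against 25.4% of all genes. The motif TGGGAA of the Notch effector RBPJ, which can share its GGAA with GGAAG, was present for 4 of the 23 (17.4%), Lrg1 and Abcc9 among them, against 19.2% of all genes. The CArG box bound by serum response factor was found for 1 of the 23 (4.35%), against 1.19% of all genes. GC content of the printed windows ran from 47.9% in Ly6c1 to 68.9% in Abcc9. A match describes letters in the window and not a bound site.

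By level, the 34 genes spanned more than 2 orders of magnitude and kept much the same order in both groups. Bsg, a widely expressed partner of monocarboxylate transporters, was the most abundant, at 292, 319 and 316 CPM in PHF2 t/g against 291, 315 and 279 CPM in WT. It made up 39.6% of the group's summed level in PHF2 t/g against 41.4% in WT. Egfl7, a secreted endothelial protein, came second in both groups, followed by Slc2a1, Esam and Abcb1a in PHF2 t/g and by Esam and Slc2a1 in WT. Between 10 and 100 CPM there were 15 genes in PHF2 t/g against 12 in WT, between 1 and 10 CPM 15 in PHF2 t/g against 18 in WT, and under 1 CPM 3 in each group. Of 33 neighbouring pairs in that order, 6 in PHF2 t/g against 4 in WT did not overlap when 1 SD was allowed on either side of each mean. Those in PHF2 t/g were Bsg above Egfl7, Egfl7 above Slc2a1, Slc2a1 above Esam, Esam above Abcb1a, Pdgfrb above Myl9 and Icam2 above Emcn; those in WT were Bsg above Egfl7, Egfl7 above Esam, Esam above Slc2a1 and Abcb1a above Eng. The order of the other neighbours was within their spread. Vwf ranked 24 of 34 in PHF2 t/g against 32 in WT, and Lrg1 25 and 31. The summed level of the group was 745, 778 and 814 CPM in PHF2 t/g against 740, 710 and 688 CPM in WT, with no overlap (means 779 ± 34.8 CPM and 712 ± 26.3 CPM). Its members were chosen with earlier results of these data known, so this separation is a description only.

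**Figure D3:**
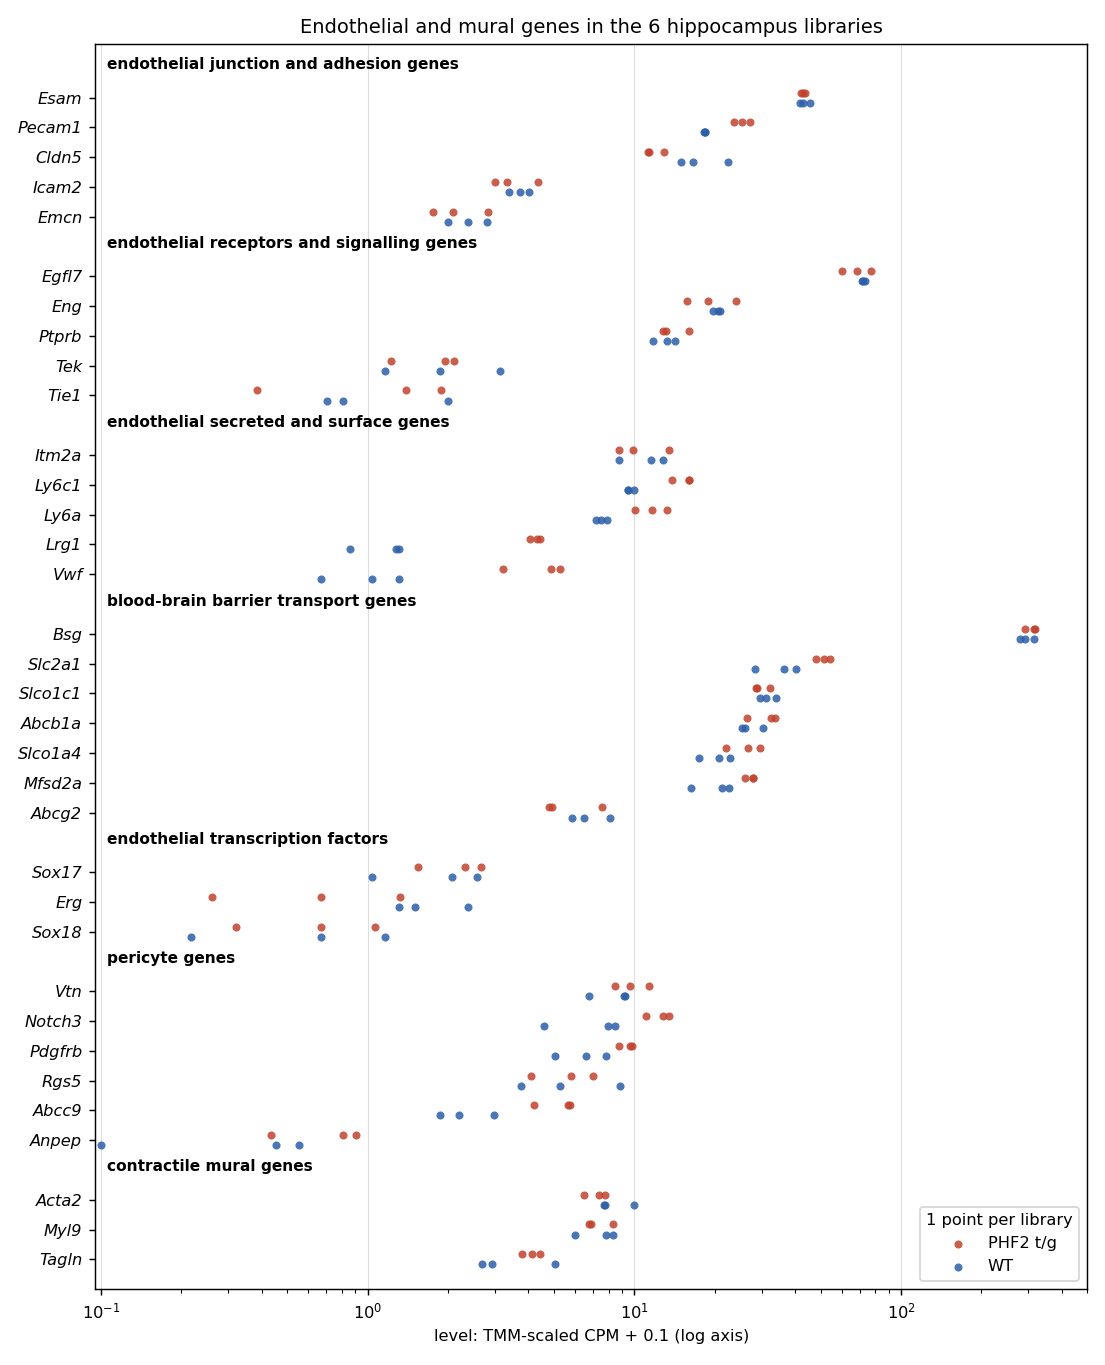
Level of each of the 34 genes in each library (horizontal log axis, CPM + 0.1), 1 point per library, with PHF2 t/g above WT for each gene. Bsg lies near 300 CPM in both groups, and the points of Vwf and Lrg1 separate by genotype without overlap.

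Genes of the endothelial junctions and of cell adhesion did not move together, and none of the 5 passed the test. Esam, an adhesion molecule of tight junctions and the most abundant of them, had 42.1, 42.9 and 43.6 CPM in PHF2 t/g against 42.8, 45.6 and 41.8 CPM in WT. Its groups overlapped (42.9 ± 0.762 CPM and 43.4 ± 1.98 CPM; log2 fold change -0.02, SE 0.103, 95% interval -0.24 to 0.20, adjusted p = 0.95). Pecam1, an adhesion molecule at endothelial contacts (chr11:106654213-106715281) and the one with the smallest p here, had 23.5, 25.1 and 27.0 CPM in PHF2 t/g against 18.3, 18.1 and 18.3 CPM in WT. Every PHF2 t/g library lay above every WT library, by a ratio of 1.38 (log2 0.47, SE 0.129), and the gene missed the threshold (adjusted p = 0.0672), although it was called with total count scaling (0.0284) and without the low-count filter (0.0467). Cldn5, the claudin that seals brain endothelial tight junctions (chr16:18776847-18778262), lay the other way. It had 11.1, 12.8 and 11.3 CPM in PHF2 t/g against 22.3, 14.9 and 16.5 CPM in WT, from 70 to 127 counts per library. No PHF2 t/g library reached the lowest WT library, WT replicate 1 was the highest, and the log2 fold change of -0.59 (SE 0.17) missed the threshold (adjusted p = 0.0791). Cldn5 was called lower when no low-count filter was used and when WT replicate 2 was left out. Within each library the count of Pecam1 was 2.12, 1.97 and 2.40 times that of Cldn5 in PHF2 t/g against 0.821, 1.21 and 1.11 times in WT, a ratio that does not depend on the scaling of the library. Pecam1 lay above WT and Cldn5 below it in every PHF2 t/g library, so this ratio had to separate the groups. It adds no support for either gene. Icam2, a ligand of leukocyte integrins, averaged 3.46 ± 0.713 CPM in PHF2 t/g against 3.61 ± 0.322 CPM in WT. Emcn, a sialomucin of capillary and venous endothelium, averaged 2.13 ± 0.549 CPM in PHF2 t/g against 2.29 ± 0.400 CPM in WT, and both genes overlapped between the groups.

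The endothelial receptors and signalling genes showed no gene past the test and no gene without overlap. Egfl7, the highest of them and the one with the smallest p (chr2:26581083-26592682), had 59.8, 68.3 and 77.1 CPM in PHF2 t/g against 72.1, 71.4 and 73.2 CPM in WT. The PHF2 t/g libraries spread around the WT ones (68.4 ± 8.61 CPM and 72.3 ± 0.905 CPM; log2 -0.08, SE 0.103, 95% interval -0.30 to 0.13, adjusted p = 0.765). Eng, a co-receptor for the TGF-beta family, had 15.7, 18.7 and 24.0 CPM in PHF2 t/g against 19.6, 20.4 and 20.9 CPM in WT. Its tags can be confused with those of Fpgs, which overlaps its last exon on the opposite strand. Ptprb, the phosphatase that acts on the angiopoietin receptor, averaged 13.9 ± 1.78 CPM in PHF2 t/g against 13 ± 1.24 CPM in WT. Tek, that receptor, averaged 1.66 ± 0.466 CPM in PHF2 t/g against 1.96 ± 1.01 CPM in WT. Its relative Tie1 was below the filter, with 16, 2 and 8 counts in PHF2 t/g against 10, 6 and 4 counts in WT. Tie1 was not called without the filter either. The median log2 fold changes of the junction genes (-0.06) and of the receptor genes (-0.08) were smaller than the shift that scaling by total count gives, so no direction is stated for either.

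Of the 5 endothelial secreted and surface genes, 3 rose in PHF2 t/g. Vwf encodes von Willebrand factor, which endothelial cells store and release to bind platelets (chr6:125552948-125686679). It had 43, 22 and 32 counts in PHF2 t/g against 3, 8 and 8 counts in WT, or 4.77, 3.12 and 5.15 CPM in PHF2 t/g against 0.571, 0.940 and 1.21 CPM in WT. The lowest PHF2 t/g library was above the highest WT library, and the mean of 4.35 ± 1.08 CPM in PHF2 t/g against 0.907 ± 0.321 CPM in WT gave a 4.61-fold rise (log2 2.21, SE 0.378, 95% interval 1.41 to 3.0, adjusted p = 0.00357). Lrg1 encodes leucine-rich alpha-2-glycoprotein, a secreted modifier of TGF-beta signalling in endothelium (chr17:56119678-56121946). It had 38, 28 and 27 counts in PHF2 t/g against 4, 10 and 8 counts in WT, or 4.22, 3.98 and 4.34 CPM in PHF2 t/g against 0.761, 1.17 and 1.21 CPM in WT. The PHF2 t/g libraries were close to each other and all above WT, a 3.84-fold rise (4.18 ± 0.187 CPM and 1.05 ± 0.25 CPM; log2 1.94, SE 0.343, 95% interval 1.22 to 2.66, adjusted p = 0.00449). Both genes therefore rest on 3 to 10 counts in each WT library.

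Ly6c1 and Ly6a are neighbours on chromosome 15, 46.0 kb apart, and encode lipid-anchored surface proteins of the Ly6 family found on brain endothelium of this strain. Ly6c1 (chr15:75044018-75048920) had 15.9, 13.8 and 15.9 CPM in PHF2 t/g against 9.33, 9.40 and 9.84 CPM in WT. The groups did not overlap and the rise was 1.60-fold (15.2 ± 1.23 CPM and 9.52 ± 0.275 CPM; log2 0.67, SE 0.159, adjusted p = 0.0312). Its copy Ly6c2 is nearly identical and its tags may be split between the copies; Ly6c2 held 6, 6 and 9 counts in PHF2 t/g against 5, 5 and 4 counts in WT, against 97 to 143 counts of Ly6c1 in PHF2 t/g against 49 to 80 in WT. Ly6a (chr15:74994877-74998031) had 13.1, 9.94 and 11.6 CPM in PHF2 t/g against 7.80, 7.40 and 7.11 CPM in WT. It was above WT in every PHF2 t/g library without passing (log2 0.64, SE 0.184, adjusted p = 0.0794), and was called with total count scaling (0.0426) and without the filter (0.0475). The 5th gene, Itm2a, a membrane protein, averaged 10.6 ± 2.45 CPM in PHF2 t/g against 10.9 ± 2.10 CPM in WT, with overlap. Within libraries, the count of Ly6c1 relative to that of Egfl7 was 0.265, 0.202 and 0.207 in PHF2 t/g against 0.129, 0.132 and 0.134 in WT, without overlap. That pair was picked with the call of Ly6c1 known, so the ratio adds no support to it. Another annotated gene, Gm20532, overlaps the last exon of Egfl7 on the same strand, so tags of Egfl7 are uncertain. Summed over the 5 genes, the level was 46.6, 40.6 and 50.4 CPM in PHF2 t/g against 31.2, 30.3 and 28.0 CPM in WT.

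Of the 7 blood-brain barrier transport genes, 1 rose. Slc2a1 encodes GLUT1, through which glucose crosses the endothelium and which astrocytes also express (chr4:119108745-119137330). It had 54.0, 47.9 and 51.2 CPM in PHF2 t/g against 40.4, 28.3 and 36.3 CPM in WT, from 212 to 486 counts per library. Each PHF2 t/g library exceeded each WT library, and WT replicate 2 was the lowest; the rise was 1.47-fold (51.0 ± 3.05 CPM and 35.0 ± 6.13 CPM; log2 0.55, SE 0.125, adjusted p = 0.0247). An antisense gene, Gm12868, lies over its last exon, and the strand setting of the counting is unknown here. Mfsd2a, the transporter of lysophospholipids that carry omega-3 fatty acids, had 26.0, 27.8 and 27.7 CPM in PHF2 t/g against 22.5, 21.3 and 16.2 CPM in WT. It too was above WT in every library, at a ratio of 1.36, and did not pass (log2 0.44, SE 0.139, adjusted p = 0.106), except with total count scaling (0.0439). Slco1a4, an organic anion transporter, had 26.6, 21.9 and 29.6 CPM in PHF2 t/g against 22.7, 20.7 and 17.4 CPM in WT, with overlap (adjusted p = 0.231). The remaining 4 transport genes overlapped between the groups as well. Bsg averaged 309 ± 14.9 CPM in PHF2 t/g against 295 ± 18.5 CPM in WT (log2 0.06, SE 0.0786, adjusted p = 0.765). The thyroid hormone transporter Slco1c1 averaged 29.8 ± 1.98 CPM in PHF2 t/g against 31.4 ± 2.29 CPM in WT, and the efflux pump Abcb1a 30.8 ± 3.79 CPM in PHF2 t/g against 27.1 ± 2.77 CPM in WT. These are the main carriers of thyroxine and of many drugs at the barrier. Abcg2, another efflux pump, averaged 5.64 ± 1.56 CPM in PHF2 t/g against 6.70 ± 1.16 CPM in WT.

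The endothelial transcription factors were at the lower limit of these libraries. Sox17, which acts in arterial endothelium, was the only 1 of the 3 tested, with 2.22, 2.56 and 1.45 CPM in PHF2 t/g against 2.47, 0.940 and 1.97 CPM in WT (log2 0.30, SE 0.409, adjusted p = 0.791). Sox18 had 2, 4 and 6 counts in PHF2 t/g against 3, 1 and 7 counts in WT. Erg, an ETS factor that maintains endothelial identity, had 11, 4 and 1 counts in PHF2 t/g against 12, 12 and 8 counts in WT. Neither Sox18 nor Erg was called without the filter.

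Of the 6 pericyte genes, 5 were tested and 2 rose in PHF2 t/g. Notch3 encodes the Notch receptor of mural cells, mutated in the human small-vessel disease CADASIL (chr17:32120820-32166896). It had 12.7, 13.3 and 10.9 CPM in PHF2 t/g against 8.38, 4.46 and 7.87 CPM in WT. The groups did not overlap, WT replicate 2 was the lowest, and the rise was 1.83-fold (12.3 ± 1.24 CPM and 6.90 ± 2.13 CPM; log2 0.87, SE 0.217, adjusted p = 0.0413). The antisense gene Gm17276 lies over its last exon. Abcc9 encodes the sulfonylurea receptor subunit of ATP-sensitive potassium channels in pericytes (chr6:142587862-142702766). It had 5.55, 4.12 and 5.63 CPM in PHF2 t/g against 2.09, 1.76 and 2.87 CPM in WT, from 11 to 50 counts per library. The groups did not overlap and the rise was 2.29-fold (5.10 ± 0.851 CPM and 2.24 ± 0.571 CPM; log2 1.19, SE 0.299, adjusted p = 0.0433). Pdgfrb, the receptor through which platelet-derived growth factor from endothelium recruits pericytes, had 9.66, 9.51 and 8.69 CPM in PHF2 t/g against 6.47, 4.93 and 7.72 CPM in WT. It was above WT in every library and did not pass (log2 0.56, SE 0.209, adjusted p = 0.193). The remaining tested pericyte genes overlapped between the groups. Vtn, which encodes the matrix protein vitronectin and was the highest pericyte gene in WT, had 9.55, 8.38 and 11.3 CPM in PHF2 t/g against 9.14, 9.05 and 6.66 CPM in WT (adjusted p = 0.649). Rgs5, a regulator of G-protein signalling abundant in pericytes, had 4.0, 5.68 and 6.92 CPM in PHF2 t/g against 8.76, 3.64 and 5.15 CPM in WT. Anpep, the surface peptidase CD13, was below the filter, with 3, 5 and 5 counts in PHF2 t/g against 0, 3 and 3 counts in WT. The count of Abcc9 relative to that of Rgs5 was 1.39, 0.725 and 0.814 in PHF2 t/g against 0.239, 0.484 and 0.559 in WT. This pair was picked with the call of Abcc9 known, so the ratio repeats that call and adds no support to it. Rgs5 itself varied widely within WT.

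None of the 3 contractile mural genes passed the test. Acta2, smooth muscle actin (chromosome 19), had 7.66, 6.39 and 7.24 CPM in PHF2 t/g against 9.90, 7.64 and 7.57 CPM in WT, with overlap (log2 -0.22, SE 0.203, adjusted p = 0.672). Tagln, an actin-binding protein of smooth muscle, had 4.33, 3.69 and 4.02 CPM in PHF2 t/g against 4.95, 2.82 and 2.57 CPM in WT, and its last exon is overlapped by Pcsk7 on the opposite strand. Myl9, a regulatory light chain of myosin, averaged 7.22 ± 0.857 CPM in PHF2 t/g against 7.26 ± 1.22 CPM in WT (adjusted p = 0.997). The count of Notch3 relative to that of Myl9 was 1.87, 2.0 and 1.33 in PHF2 t/g against 1.02, 0.760 and 1.02 in WT. Since this pair was picked with the call of Notch3 known, the ratio adds no support to that call.

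Summed by role, the secreted and surface genes, the transport genes and the pericyte genes separated the groups and the other roles did not. These are the roles that hold the called genes, and members were chosen with earlier results of these data known. Vwf and Lrg1 also passed the low-count filter only through the PHF2 t/g libraries. The separation of the sums and the medians below therefore describe these genes and support nothing further. The transport genes summed to 461, 486 and 491 CPM in PHF2 t/g against 446, 446 and 415 CPM in WT. The pericyte genes summed to 41.7, 41.8 and 44.2 CPM in PHF2 t/g against 34.8, 24.2 and 30.7 CPM in WT. The junction genes summed to 81.6 to 87.5 CPM in PHF2 t/g against 82.8 to 88.9 CPM in WT, the receptor genes to 91.9 to 119 CPM in PHF2 t/g against 106 to 111 CPM in WT, and the contractile genes to 16.8 to 19.5 CPM in PHF2 t/g against 16.3 to 23.0 CPM in WT. The median log2 fold change was 0.67 in the secreted and surface group, 0.56 in the pericyte group, 0.18 in the transport group and 0.00 in the contractile group, beside 0.02 for all genes.

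**Figure D4:**
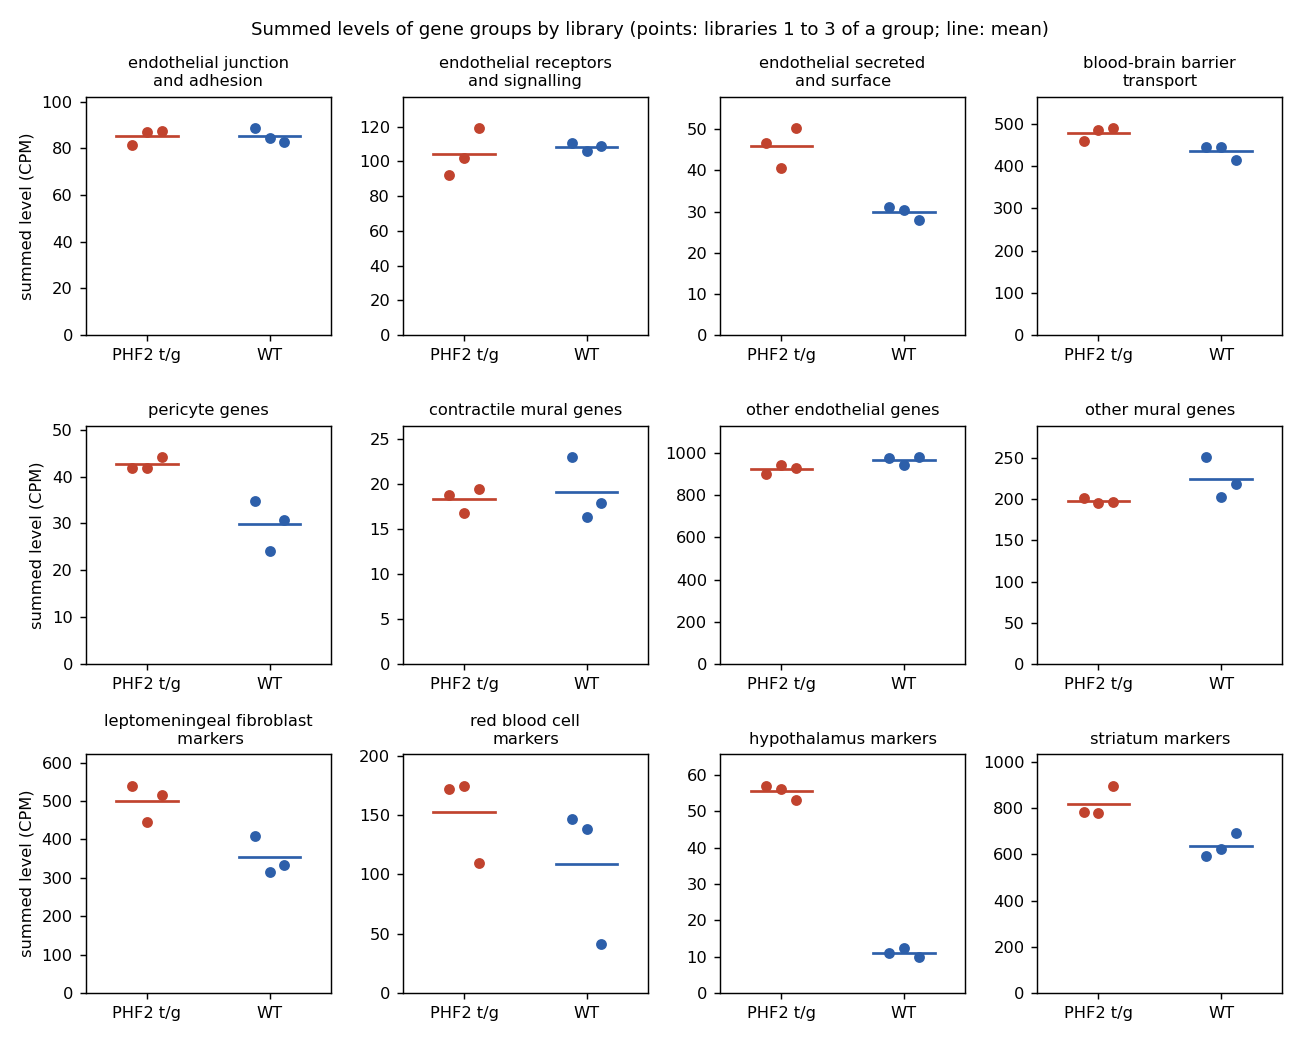
Summed level (CPM, linear axes from 0) of the vascular roles, of 2 lists of other vascular genes and of marker lists of other cell types, 1 point per library and a line at the mean, with PHF2 t/g left of WT. The secreted and surface genes lie at 40.6 to 50.4 CPM in PHF2 t/g against 28.0 to 31.2 CPM in WT, while other endothelial genes lie at 898 to 941 CPM in PHF2 t/g against 941 to 982 CPM in WT.

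A further list held 68 other genes of endothelial and mural cells. Of them 55 were tested, 1 was higher, 1 was lower and 53 did not pass. The log2 fold change was above 0 for 30 (54.5%, against 53.9% of all genes tested) and below for 25. Its median was 0.02, the same as for all genes. Flt1, a receptor for vascular endothelial growth factor, had 60.3, 56.0 and 53.6 CPM in PHF2 t/g against 45.1, 38.8 and 38.0 CPM in WT. All PHF2 t/g libraries were above WT (1.40-fold; log2 0.48, SE 0.107, adjusted p = 0.0223). Klf4, a transcription factor of endothelium and of other brain cells, was the one that fell, to 33.3, 35.2 and 44.1 CPM in PHF2 t/g, against 51.4, 52.2 and 54.9 CPM in WT (1.41-fold lower; log2 -0.50, SE 0.116, adjusted p = 0.0296). Flt1 was no longer called when WT replicate 3 or a single PHF2 t/g library was dropped, or in the fit that was not robust. Its call was also lost without PHF2 t/g replicate 1 and WT replicate 2 together. Klf4 was no longer called when WT replicate 3, PHF2 t/g replicate 1 or PHF2 t/g replicate 2 was dropped, or with total count scaling. Its call was also lost with limma-voom, in the fit that was not robust and without PHF2 t/g replicate 1 and WT replicate 2 together. Next by p among endothelial genes came Slc7a5, the carrier of large neutral amino acids, with 77.6, 77.7 and 79.3 CPM in PHF2 t/g against 110, 87.8 and 102 CPM in WT (adjusted p = 0.0623), and Car4, a capillary carbonic anhydrase, with 13.4, 15.3 and 13.7 CPM in PHF2 t/g against 18.1, 18.8 and 19.4 CPM in WT (adjusted p = 0.154). Both lay below WT in every library without passing. Of the 19 mural genes tested none passed; Mylk, the myosin light chain kinase, had 102, 99.8 and 99.8 CPM in PHF2 t/g against 123, 134 and 107 CPM in WT (adjusted p = 0.131). Heyl, a Notch target of mural cells, had 2.33, 1.70 and 2.74 CPM in PHF2 t/g against 1.52, 0.940 and 0.757 CPM in WT (log2 1.10, adjusted p = 0.2). Cdh5, the cadherin that defines endothelial junctions, had 5.88, 3.55 and 5.47 CPM in PHF2 t/g against 2.86, 3.88 and 3.33 CPM in WT, with overlap (log2 0.55, adjusted p = 0.373). Sele and Selp, the selectins of inflamed endothelium, were at 0 in all 6 libraries. Summed over the list, other endothelial genes stood at 898.3 to 940.8 CPM in PHF2 t/g against 941.3 to 981.7 CPM in WT, and other mural genes at 196 to 202 CPM in PHF2 t/g against 203 to 251 CPM in WT. The whole list summed to 1100 to 1137 CPM in PHF2 t/g against 1144 to 1229 CPM in WT. All of these sums lay below WT in every PHF2 t/g library, by narrow margins, opposite to the sum of the 34 genes. After the same scaling the sum over all genes also lay below WT in every PHF2 t/g library. It was 956236 to 973946 CPM in PHF2 t/g against 1.02e+06 to 1.05e+06 CPM in WT, so no direction is stated for the sums of this list.

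Markers of other cells that lie on or near vessels moved unevenly beside these values. Of the leptomeningeal fibroblast markers 11 of 14 were tested and 1 was higher: Mgp, matrix Gla protein, which vascular cells can also express, had 119, 105 and 111 CPM in PHF2 t/g against 52.7, 37.6 and 40.4 CPM in WT (2.58-fold, adjusted p = 2.5e-06). The list summed to 445 to 540 CPM in PHF2 t/g against 316 to 410 CPM in WT, and without Mgp and Ptgds, its most abundant members, to 109 to 130 CPM in PHF2 t/g against 111 to 132 CPM in WT. Of the 11 tested, 8 lay above 0, against 53.9% of all genes tested. Their median log2 fold change was 0.55, also 0.55 without Mgp and Ptgds. At an unadjusted p under 0.05 in edgeR, 7 were higher, against 862 of all 12831 genes. Ptgds, Col1a1, Ogn and Slc6a13 lay above WT in every PHF2 t/g library without passing, at log2 fold changes of 0.53, 1.32, 1.22 and 0.93. Igfbp2 lay below WT in every library (log2 -0.28) and did not pass. The defining fibroblast gene Dcn had 19.5, 23.0 and 13.7 CPM in PHF2 t/g against 27.8, 20.4 and 23.9 CPM in WT and did not pass. Of the perivascular macrophage and leukocyte markers none of 3 tested, of 10 listed, passed. They summed to 14.2 to 17.8 CPM in PHF2 t/g against 8.02 to 11.2 CPM in WT, with Mrc1 at 2.27 to 2.66 CPM in PHF2 t/g against 0.705 to 2.86 CPM in WT. The other tested markers, S100a8 (log2 1.25, adjusted p = 0.131) and Cd163 (log2 0.69, adjusted p = 0.365), lay above WT in every PHF2 t/g library. Red cell content varied widely within both groups. Red blood cell markers summed to 109 to 175 CPM in PHF2 t/g against 41.6 to 146 CPM in WT, with 0 of 3 tested past the test and Hba-a1 at 72.4 to 91.7 CPM in PHF2 t/g against 33.1 to 93.4 CPM in WT. Choroid plexus transcripts were prominent in PHF2 t/g replicate 1. The choroid plexus markers summed to 334, 15.1 and 15.3 CPM in PHF2 t/g against 11.0, 12.8 and 8.78 CPM in WT, with 0 of 3 tested past the test. Clic6 lay above WT in every PHF2 t/g library, at 15.9, 5.68 and 8.69 CPM against 2.09, 3.64 and 2.87 CPM in WT (edgeR adjusted p = 0.0614). Ttr and Prlr overlapped between the groups. Without PHF2 t/g replicate 1 alone, none of the vascular genes was called. Over all genes 0.185% were then higher, against 0.779% with all 6 libraries. The log2 fold change of Vwf was 2.12 without it and 2.21 with it (edgeR adjusted p = 0.064 without it). For Lrg1 the values were 1.93 and 1.94 (adjusted p = 0.0561 without it). The part of choroid plexus tissue in these calls was not tested. None of the 10 microglia, 8 astrocyte and 3 tested ependymal markers passed. Microglia markers summed to 341 to 359 CPM in PHF2 t/g against 346 to 418 CPM in WT, with Cx3cr1 at 67.6 ± 2.50 CPM in PHF2 t/g against 89.6 ± 15.5 CPM in WT (adjusted p = 0.0647) and Tmem119 the other way at 8.95 ± 0.408 CPM in PHF2 t/g, against 5.75 ± 1.05 CPM in WT (adjusted p = 0.126). Astrocyte markers summed to 3744 to 4015 CPM in PHF2 t/g against 3808 to 3985 CPM in WT, with Aqp4 at 68.2 to 94.6 CPM in PHF2 t/g against 91.0 to 112 CPM in WT and Gfap above WT in every PHF2 t/g library (log2 0.43, adjusted p = 0.185). Aldh1l1 also lay above WT in every PHF2 t/g library (log2 0.19), and S100b lay below (log2 -0.18). Ependymal markers summed to 8.09 to 12.5 CPM in PHF2 t/g against 8.93 to 10.9 CPM in WT, with Foxj1 at 4.54 to 7.22 CPM in PHF2 t/g against 4.11 to 5.45 CPM in WT. Markers of neighbouring brain regions separated the groups. Avp, the first hypothalamic marker, had 26.9, 28.3 and 26.7 CPM in PHF2 t/g against 0.381, 0.470 and 0 CPM in WT. Penk, the first striatal marker, had 228, 219 and 255 CPM in PHF2 t/g against 145, 119 and 162 CPM in WT. The part of these cell types and regions in the vascular values was not tested.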

How the data were processed

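Per the labels' protocols, RNA from the hippocampus was extracted with Trizol and 3′ libraries were made with the Lexogen QuantSeq kit. The mm10 build, Bowtie2 and edgeR are named per the submitters' processing notes; the sources used here give no counting program, strand setting or annotation. Each library has 1 deposited file of raw counts, not normalized by the authors, with 23282 rows. A symbol occurs again in 44 of them, and these were not merged. Groups and replicate numbers came from the sample titles.

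Genes were kept by filterByExpr (about 1.47 CPM in 3 libraries), scaled by TMM and tested by genotype alone with the robust quasi-likelihood fit of edgeR 4.0.16 under R 4.3.3. P-values were adjusted over the 12831 genes by Benjamini-Hochberg, and calls were made under 0.05. The fit was tested on simulated data. The standard error is the log2 fold change divided by the square root of F, and 95% intervals use the fit's degrees of freedom. Alternatives used DESeq2 1.42.0, limma 3.58.1 (voom), other scalings and filters, and each library left out. Depth limits genes of a few counts per library. Within each group, every pair of libraries differed by more than counting noise, so none was merged.

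The members and lists were chosen with earlier results of these data known, so no p-value over a list is given. Genes named in every library are those past the threshold, and in each role the highest and the one with the smallest p; outside these, Cldn5, Ly6a, Eng, Mfsd2a, Slco1a4, Pdgfrb, Rgs5, Tagln, Cdh5, Mgp and other markers after the first of each list, Ly6c2, the tissue markers and the count ratios were picked with their values in view. Coordinates and promoter windows are RefSeq, GRCm38.p6; genes over last exons are from GENCODE M21.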

Additional observations from a re-analysis of the deposited data

How the results depend on the processing

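Of the endothelial and mural genes, 6 were higher in PHF2 t/g. That count was 1 with DESeq2, where 9 of the group received an adjusted p and Vwf, Lrg1, Ly6c1, Notch3 and Abcc9 did not. It was 2 with limma-voom and 2 with a fit that was not robust. The count was also 2 without PHF2 t/g replicate 1 and WT replicate 2 together, an alternative chosen after seeing the data. It was 9 with total count scaling, 8 without the low-count filter and 8 at an adjusted p under 0.10. With 1 library left out it ranged from 0 to 5. None was lower, and the count was 1 (Cldn5) without a low-count filter and 1 at an adjusted p under 0.10, and 0 to 1 across the single-library exclusions. For the group, the median log2 fold change came to 0.24 with total count scaling and to between 0.0202 and 0.27 with a single library dropped, the low end without WT replicate 2 and the high end without WT replicate 1. Of the other vascular genes 1 was higher, and 0 in the fit that was not robust, 0 without both libraries and 0 to 1 with 1 left out. The count of those lower was 0 with total count scaling, with limma-voom and in the fit that was not robust, 2 with DESeq2, without the filter and at an adjusted p under 0.10, 3 without both libraries and 0 to 3 with 1 left out. Their median was 0.12 with total count scaling and -0.04 to 0.09 with 1 left out. The cause was not tested. Over all genes, 100 were higher and 191 lower in the main test, and 24 to 129 and 25 to 263 with 1 library left out. These counts were 50 and 220 with DESeq2, 53 and 109 with limma-voom and 51 and 98 in the fit that was not robust. They were 207 and 70 with total count scaling, 229 and 377 without the filter and 47 and 93 without both libraries. No count over all genes is given at an adjusted p under 0.10, so the counts at that threshold stand without a share beside them. The replicate numbers mark no stated pairing, and same-numbered libraries deviated together with correlations of -0.00445, 0.123 and 0.0846; with a replicate block the count stayed at 6 higher and 0 lower in the group and was 101 and 198 over all genes, and not every library correlated best with its own number. The median of the other vascular genes, near 0 throughout, was also below 0 with DESeq2 and without PHF2 t/g replicate 2 or WT replicate 2. No called gene of the group changed sign. Tie1, Sox18, Erg and Anpep fell below the low-count filter and were not called without it.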
